A study of Mus musculus with 5 samples.

Results

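The S100a genes encode small proteins of a calcium-binding family, each with a pair of EF-hand loops, that mostly work as dimers. The 6 members described here, *S100a8*, *S100a9*, *S100a6*, *S100a4*, *S100a10* and *S100a11*, were taken by gene name, with no threshold on their values, and they are 6 of the 28692 genes listed in the count matrices. They were measured by droplet single-cell RNA sequencing (10x Genomics, 3' v2) of bone marrow in a time course of pre-B acute lymphoblastic leukemia. The 5 mice of strain C57BL/6J, bought at 8 weeks of age and neither irradiated nor immune deficient, each received 1000 BCR-ABL1 pre-B ALL cells by tail vein. One mouse was killed straight after the injection (day 0) and 1 mouse each at day 3, day 6, day 9 and day 12, so the day 0 animal carried the injected cells too and no mouse went without them. Marrow flushed from femurs and tibias was pooled with cells digested out of the crushed bones, red blood cells were lysed, and cells were frozen before capture. With 1 library per day, day and mouse cannot be told apart, no test between days was possible, and every interval below covers counting error only.

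Most S100 proteins change shape when calcium binds and then expose a surface that grips partner proteins. *S100a8* and *S100a9* encode the subunits of calprotectin, which fills the neutrophil cytosol, withholds zinc and manganese from microbes and signals through Toll-like receptor 4 once released. *S100a10* pairs with annexin A2 at the plasma membrane and carries plasminogen-activating activity there, *S100a11* binds annexin A1, *S100a4* binds the non-muscle myosin heavy chain encoded by *Myh9* and is tied to cell migration, and *S100a6* binds several annexins and the calcyclin-binding protein encoded by *Cacybp*.

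The libraries held between 5474 and 7604 barcodes with at least 500 unique molecular identifiers (UMIs, the count of distinct captured molecules), 32135 in all, with a median of 2874 to 3786 UMIs per barcode. Between 44 and 73 of these barcodes were shared by any pair of libraries, where 43.6 to 68.9 would be shared by unrelated sets. Clustering that left out every S100 gene gave 16 clusters. From marker genes, 12 groups present in all 5 libraries were named: a granulocyte-monocyte progenitor-like (GMP-like) group, 4 neutrophil-like groups (precursor, immature, and a pair of mature groups told apart by their leading genes, *Gm5483* and *Retnlg*), monocyte-like and cycling monocyte-like groups, and pro/pre-B-like, B-like, T-like, NK-like and plasmacytoid dendritic-like (pDC-like) groups. Each passed at least 6 of its listed markers, and all 7 immature neutrophil markers, all 8 monocyte markers and all 7 B markers passed. A finer clustering, used as an alternative setting, named a GMP-like cluster of 532 cells and a stem and multipotent progenitor-like cluster of 877 cells. The latter passed 7 of its 8 listed markers. The GMP-like group of 1376 cells used here may therefore hold earlier progenitors too, and their share of it was not tested. A cluster of 1793 cells led by *mt-Nd1*, with a median of 43.7% mitochondrial UMIs, and a cluster of 1252 cells led by *Cd83* were left unnamed. The erythroid-like group (84 cells) was large enough only at day 9. So was a cluster of 57 cells that passed 5 of 8 stromal or endothelial markers but was led by the cartilage genes *Col2a1*, *Col11a1* and *Comp*, and it is called the *Col2a1* cluster here. Day 12 held few lymphoid cells (109 B-like cells against 811 at day 0, 241 T-like against 756, 56 pro/pre-B-like, 37 pDC-like), and that library lost 1194 cells when barcodes with high mitochondrial shares were removed, against 518 to 737 in the others. Transplanted cells were not separated from the mouse's own pro/pre-B cells.

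Levels are given as UMIs per 10000 UMIs of all genes, summed over the cells of a group in a library. Each 3' UMI stands for 1 molecule whatever its transcript length, so levels were not divided by length. The family spanned a wide range. Over all cells, *S100a8* gave 1261 UMIs per 10000 and *S100a9* 864, *S100a6* gave 34.7 and *S100a11* 33.6, and *S100a4* and *S100a10* gave 4.77 and 3.98. A UMI of *S100a8* was present in 99.99% of cells, which does not mean that these cells expressed it: barcodes with at most 100 UMIs, taken to hold free RNA from burst cells and no intact cell, carried 703 to 1094 *S100a8* and 682 to 951 *S100a9* UMIs per 10000. Free RNA was therefore measured in each library beside every group. Its make-up differed between libraries. Barcodes of 51 to 100 UMIs held 3675074 of its 4192437 UMIs at day 0 and 3506945 of 3910159 at day 12, but 973603 of 1453580 at day 6. Barcodes above 100 and under 500 UMIs, in neither set, numbered 8366 at day 0 and 46591 at day 6. When days are compared, free RNA levels and quotients over them therefore rest on unlike mixtures of barcodes.

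All 6 genes lie on mouse chromosome 3 (GRCm38, GENCODE gene models, protein-coding). *S100a4* (chr3:90603771-90606045, plus strand), *S100a6* (chr3:90612882-90624181, plus), *S100a8* (chr3:90668978-90670035, plus) and *S100a9* (chr3:90692632-90695721, minus) sit within 91951 bases, while *S100a11* (chr3:93520488-93526287, plus) and *S100a10* (chr3:93555080-93564643, plus) lie together further along, so the whole set spans 2960873 bases. *S100a8* and *S100a9* point toward each other, with 22596 bases between their ends. *S100a4* and *S100a6* lie 6836 bases apart, with *S100a5* between them, and their levels were highest in different cell types, *S100a4* in monocyte-like cells and *S100a6* in mature neutrophil-like cells.

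The start regions of 4 members are shown because the first pair shared 1 pattern over cell types and the others differed from it. Each runs from 120 bases before the RefSeq start (GRCm38.p6) to 20 bases from it on, read 5′ to 3′ on the strand of the gene, with matches to TATAAA (the TATA box core) and GAGGAA (a core of sites for ETS factors such as PU.1, read here on the opposite strand, as TTCCTC) in capitals.
S100a8, chr3:90668951-90669090, plus strand: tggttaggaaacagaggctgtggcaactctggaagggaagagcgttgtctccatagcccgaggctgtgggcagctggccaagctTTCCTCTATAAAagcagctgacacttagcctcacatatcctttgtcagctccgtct
S100a9, chr3:90695702-90695841, minus strand: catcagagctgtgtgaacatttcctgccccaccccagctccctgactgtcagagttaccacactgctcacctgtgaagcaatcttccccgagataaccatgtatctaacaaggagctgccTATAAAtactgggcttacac
S100a4, chr3:90603650-90603789, plus strand: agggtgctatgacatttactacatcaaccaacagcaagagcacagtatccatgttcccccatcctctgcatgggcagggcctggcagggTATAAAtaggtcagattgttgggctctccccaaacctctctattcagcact
S100a11, chr3:93520376-93520515, plus strand: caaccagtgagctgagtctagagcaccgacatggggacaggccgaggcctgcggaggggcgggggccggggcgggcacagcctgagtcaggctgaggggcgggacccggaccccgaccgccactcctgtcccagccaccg

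Of the 6 members, 5 had an entry in this table, *S100a10* being the exception. TATAAA lay 30 to 25 bases before the *S100a8* start and 31 to 26 bases before the *S100a4* start. In *S100a9* it began at base 1 of the RefSeq start itself. It was absent from the *S100a6* and *S100a11* windows. TATAAA occurs on the gene's strand in 4.52% of the 32817 windows of the same length (6.88% on either strand). The GAGGAA match of *S100a8*, 36 to 31 bases before its start, is a kind found in 13.7% of windows on either strand. TTGCNNAA, a core of C/EBP sites, was in none of the 5 windows and in 4.77% of all windows. The *S100a11* window was 73.6% G and C with 11 CpG pairs, against 50% to 55.7% and 0 to 3 pairs in the other members and a median of 54.3% over all windows. These matches are letters in a short window, and binding was not measured.

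*S100a8* and *S100a9* were neutrophil genes in every library. In the immature neutrophil-like group *S100a8* took 2658 UMIs per 10000 at day 0, 2367 at day 3, 2323 at day 6, 2300 at day 9 and 2766 at day 12. The mature (*Retnlg*) group held 2569, 2351, 2286, 2222 and 2649, the precursor-like group 2350, 1993, 1868, 1898 and 2478, and the mature (*Gm5483*) group 1927, 1821, 1724, 1815 and 2283 on the same days. Neighbours among these 4 groups overlapped across libraries, although every immature value (lowest 2300) was above every mature (*Gm5483*) value (highest 2283). All 4 stood clear of the next group: the lowest neutrophil value, 1724, was above the highest GMP-like value, 505. Below that gap the ranges of neighbouring groups overlapped throughout, from 226 to 505 in GMP-like cells down to 85.9 to 163 in cycling monocyte-like cells.

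*S100a9* had the same shape with a smaller range among neutrophils. The immature neutrophil-like group held 1750, 1705, 1690, 1663 and 1625 UMIs per 10000 from day 0 to day 12, the mature (*Retnlg*) group 1565 to 1651, the precursor-like group 1407 to 1561 and the mature (*Gm5483*) group 1253 to 1368. The lowest of these, 1253, again lay far above the highest GMP-like value, 307. Together the pair made up 39.6% to 44.1% of all UMIs in immature neutrophil-like cells, 37.9% to 42.1% and 29.8% to 36.5% in the mature groups, and already 32.8% to 39.6% in precursor-like cells, which also express the proliferation genes *Mki67* and *Top2a*. Since a share this large weighs on every other gene of the same cell, levels of the other members were also computed with this pair left out of the total.

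**Figure D1:**
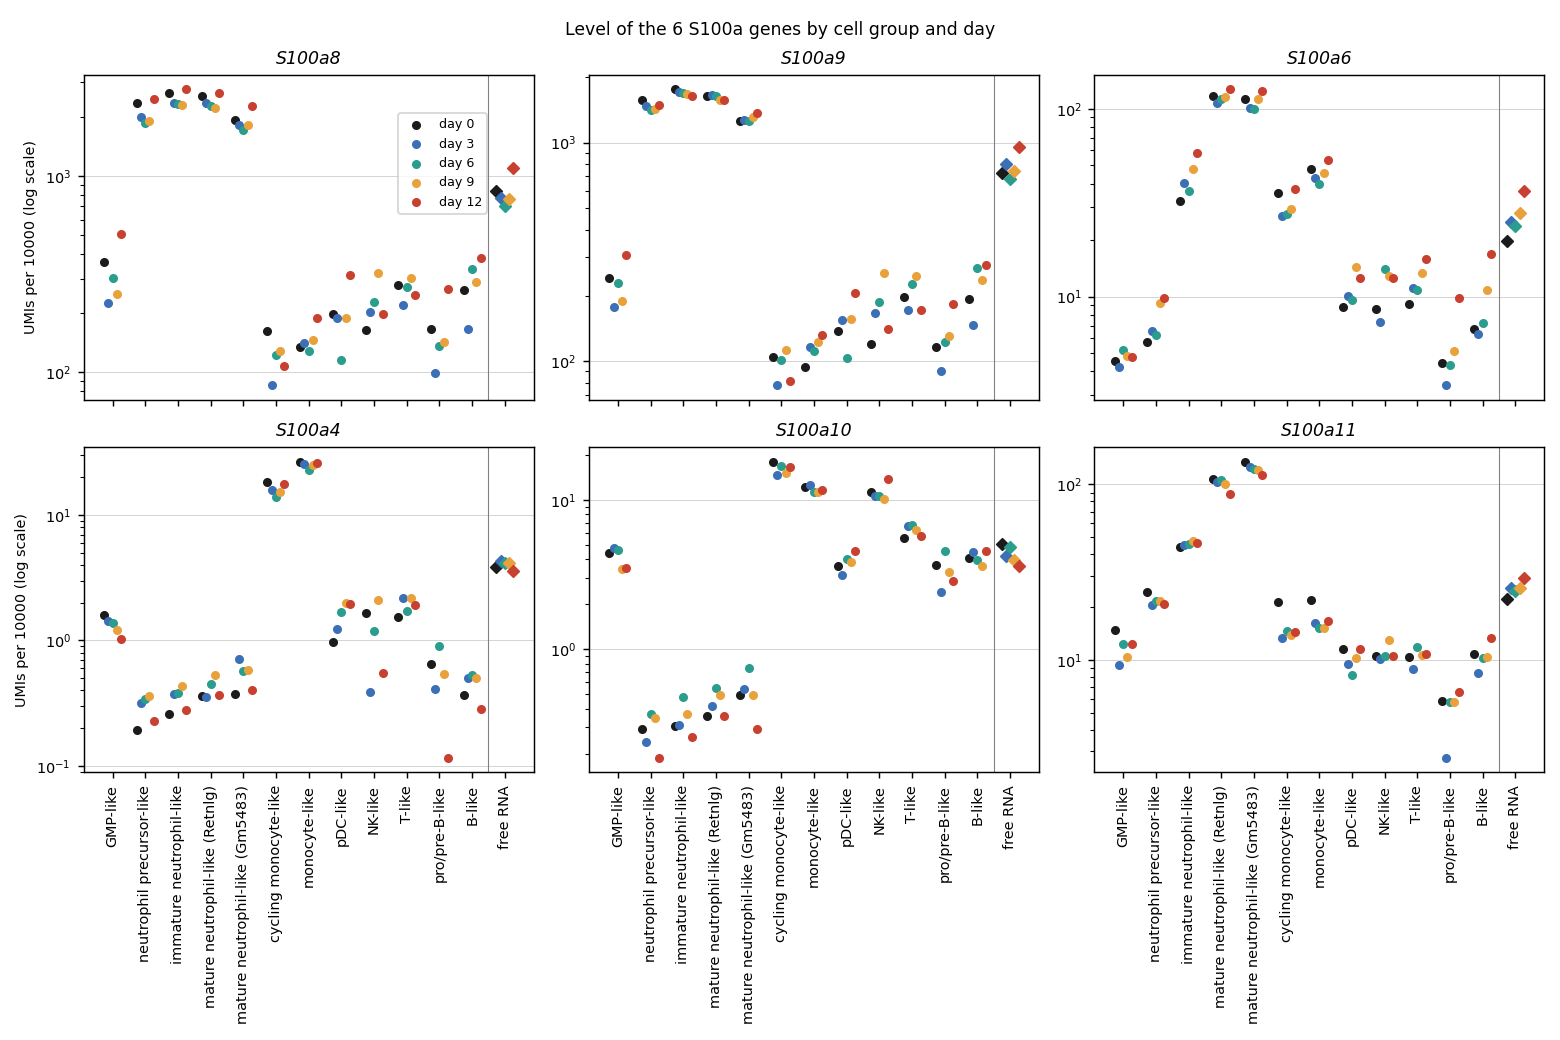
Level of each of the 6 genes (vertical axis, UMIs per 10000 UMIs, log scale) in the 12 named cell groups and in free RNA (diamonds, barcodes with at most 100 UMIs), with 1 point per library and colors for day 0 to day 12. *S100a8* and *S100a9* are high in the 4 neutrophil-like groups, *S100a6* and *S100a11* in the mature neutrophil-like groups, *S100a4* in the monocyte-like groups, and *S100a10* in monocyte-like and NK-like cells and lowest in neutrophils.

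In single cells the pair separated neutrophils from the rest with little between. The median immature neutrophil-like cell devoted 39.8% to 44.8% of its UMIs to *S100a8* and *S100a9*, and the median precursor-like cell 32.8% to 40.2%. The median cell of the 8 other named groups devoted 1.04% to 2.71%, and even the 10th percentile there was 0.729% to 1.89%. Over 10% was reached by 97.3% to 99.9% of cells in the precursor, immature and mature (*Retnlg*) groups and by 90.7% to 96.9% in the mature (*Gm5483*) group, whose lower tail reached down to a 10th percentile of 10.8% to 24.5%. Outside neutrophils the share of cells over 10% was 13.2% to 28.3% in GMP-like cells, 3.30% to 13.2% in NK-like cells, 4.23% to 6.97% in T-like cells, 2.93% to 7.34% in B-like and 3.03% to 5.87% in monocyte-like cells.

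**Figure D2:**
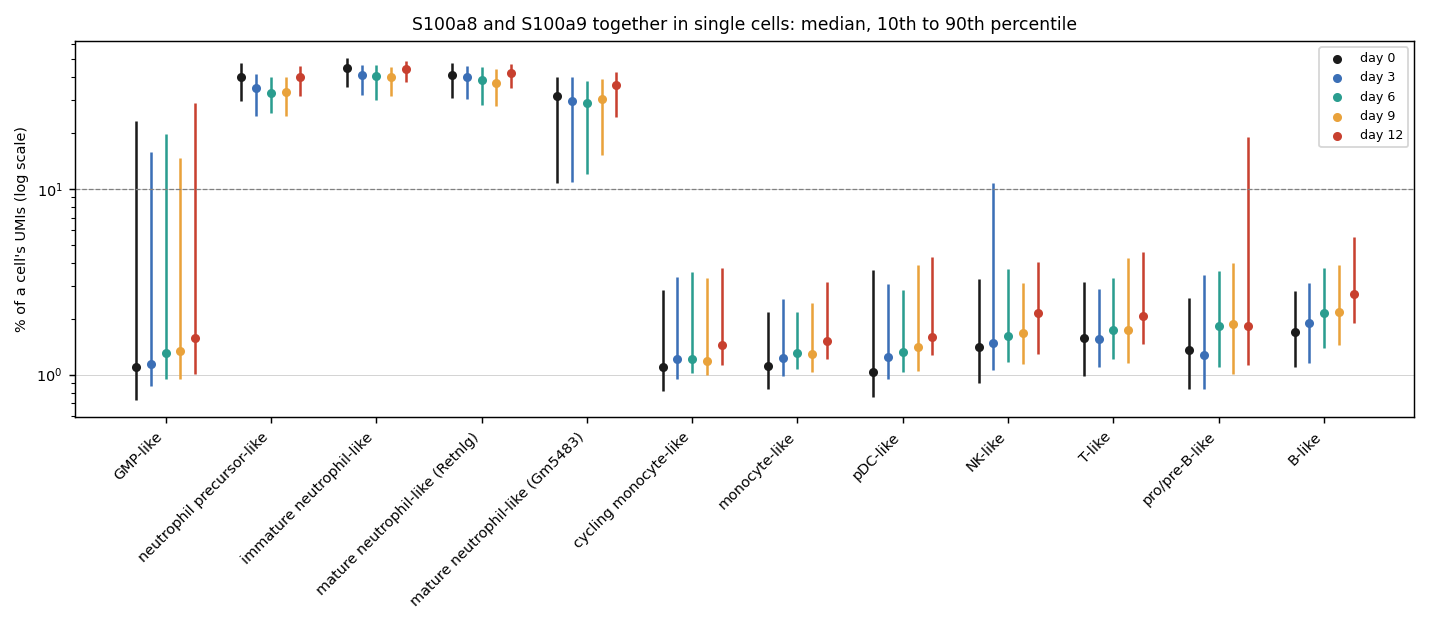
Share of each cell's UMIs from *S100a8* and *S100a9* together (vertical axis, percent, log scale) by group and day. Points are medians over cells, vertical lines run from the 10th to the 90th percentile, and the dashed line marks 10%; medians in groups other than neutrophils lie between 1.04% and 2.71%.

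Set against free RNA, *S100a9* outside neutrophils stood mostly within the span of neutrophil granule genes, and *S100a8* within or above it. *Ngp*, *Camp*, *Ltf*, *Lcn2*, *Retnlg* and *Mmp8* encode granule or secreted proteins that lymphocytes do not make. Their level in a lymphoid group, divided by their level in free RNA of the same library, gauges the stray neutrophil RNA it holds. This assumes that stray RNA has the make-up of free RNA. A single neutrophil group can differ from that make-up. In mature (*Gm5483*) cells the 6 granule genes summed were at 0.809 to 0.940 of free RNA and *S100a8* at 2.09 to 2.45. Over the 42 pairs of a named group other than neutrophils and a library, the *S100a9* quotient was inside the range of the 6 granule genes in 38 pairs and above it in 4, and the *S100a8* quotient was inside in 25 and above in 17. Neither lay below it in any pair. Against the quotient of the 6 granule genes summed, that of *S100a8* was higher in every pair, at 1.09 to 2.08 times. The *S100a9* quotient was at 0.956 to 1.46 times. These pairs are 8 groups in 5 libraries and the erythroid-like group and the *Col2a1* cluster at day 9. The *S100a8* quotient was 0.226 to 0.399 in T-like, 0.216 to 0.476 in B-like, 0.181 to 0.420 in NK-like and 0.159 to 0.191 in monocyte-like cells, and 0.293 to 0.461 in GMP-like cells, against 2.53 to 3.30 in immature neutrophil-like cells. In lymphoid groups, a level whose quotient lay inside the range could not be distinguished from stray neutrophil RNA. In GMP-like and monocyte-like groups the granule RNA was not shown to be stray, so the range gives no such reading there. At day 0 the range ran from 0.0973 to 0.373 in GMP-like and from 0.112 to 0.562 in monocyte-like cells. The count above the range depended on which barcodes stood for free RNA. With barcodes of at most 50 UMIs, *S100a8* was above the range in 0 of 42 pairs and *S100a9* in 2, and with barcodes of 51 to 200 UMIs they were above it in 25 and 5.

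**Figure D3:**
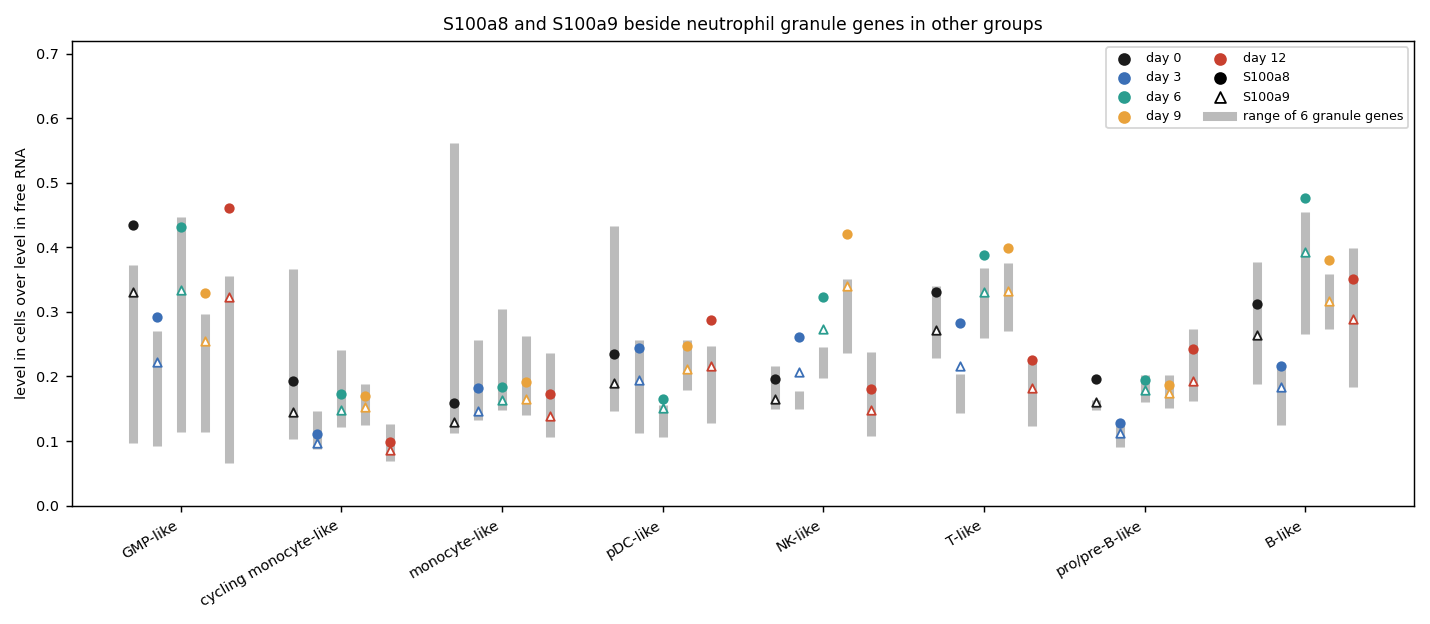
Level in cells divided by the level in free RNA of the same library (vertical axis, no unit), for *S100a8* (filled circles) and *S100a9* (open triangles), by group and day, for the 8 named groups other than neutrophils found in all libraries. Gray bars span the lowest to the highest of the 6 neutrophil granule genes. *S100a9* lies inside nearly every bar and *S100a8* inside or above.

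A few cells carried much of what these groups held. Among 2020 T-like cells, the 113 with over 10% of UMIs from the pair had a median of 5803 UMIs against 2336 in the rest, a median doublet score of 0.246 against 0.0295, and 14.2 UMIs per 10000 of the T markers against 39.2. The 124 such B-like cells likewise had a doublet score of 0.293 against 0.0203 and B markers at 18.2 against 64.9, and in the 99 such monocyte-like cells the scores were 0.227 against 0.0343. Another member differed beside them: *S100a6* was 39.2 against 7.20 UMIs per 10000 in T-like and 39.8 against 3.57 in B-like cells. The doublet scores were computed without leaving out *S100a8* and *S100a9*, so they are not independent of this split. They come from Scrublet, whose calls were judged not to have worked. Whether these barcodes held a pair of cells was not tested further.

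In the GMP-like group the split gave other values. Its 262 cells over 10% (19.0% of 1376) had a doublet score near that of the rest (0.0648 against 0.0717), a similar depth (a median of 11188.5 against 12810 UMIs) and GMP markers no lower, at 148 against 129 UMIs per 10000. *Elane*, the neutrophil elastase gene of primary granules, lay at 75.0 against 44.2, *Fcnb* at 15.3 against 0.976 and *Camp* at 415 against 22.7. Within them *S100a11* was higher, 22.99 against 9.24, *S100a10* lower, 0.584 against 4.86, *S100a4* lower, 0.353 against 1.54, and *S100a6* similar, 3.93 against 4.89. The *S100a11* and *S100a4* levels of these cells lay inside the ranges of precursor-like neutrophils over the 5 libraries (20.6 to 24.3 and 0.192 to 0.357), and the *S100a10* level lay above (0.189 to 0.371) and the *S100a6* level below (5.70 to 9.87). The 10% line was set after the data were seen and uses the pair itself, so the split describes the cells and tests nothing. How the split relates to the stem and multipotent progenitor-like cluster of the finer clustering was not tested.

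In cells at or under 10%, *S100a8* was 57.7 to 131 UMIs per 10000 in all 8 groups and 0.0643 to 0.143 of its free RNA level. *S100a8* was then inside the granule gene range in 34 of 40 pairs of group and library, above in 5 and below in 1, and *S100a9* inside in 38 and above in 2.

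The number of *S100a8* UMIs per *S100a9* UMI gave a further view of the pair. Among neutrophils it differed more between libraries than between groups. At day 0 it was 1.51 in precursor-like, 1.52 in immature, 1.58 in mature (*Retnlg*) and 1.54 in mature (*Gm5483*) cells. At day 6 the same groups held 1.33, 1.37, 1.402 and 1.37, and at day 12 they held 1.67, 1.70, 1.69 and 1.67. Day 0 and day 12 were thus high and day 3, day 6 and day 9 low in all 4 groups, without overlap. In free RNA the number was lower in every library, 1.16, 0.97, 1.03, 1.02 and 1.15 from day 0 to day 12, with the same days high. With barcodes of at most 50 UMIs as free RNA it was lower than in all neutrophil groups in 3 of 5 libraries. Barcodes of 51 to 200 UMIs held 1.13, 0.924, 0.893, 0.917 and 1.10. Lymphoid and pDC-like cells at or under 10% held 1.14 to 1.23, 0.924 to 0.960, 0.866 to 0.983, 0.887 to 0.988 and 1.09 to 1.15, around the 51 to 200 UMI values of their own library, below the values at up to 100 UMIs at day 3, day 6 and day 9, and below the neutrophils in each library. Both monocyte-like groups and GMP-like cells at or under 10% held 1.28 to 1.55, 1.05 to 1.14, 1.01 to 1.17, 1.01 to 1.23 and 1.16 to 1.56. These values lay above those of the lymphoid and pDC-like cells in every library. They lay below the neutrophils on all days but day 0, where the ranges overlapped. Barcodes with 1 to 10 UMIs, on the other hand, held 1.51, 1.37, 1.37, 1.37 and 1.74, near the neutrophil values.

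**Figure D4:**
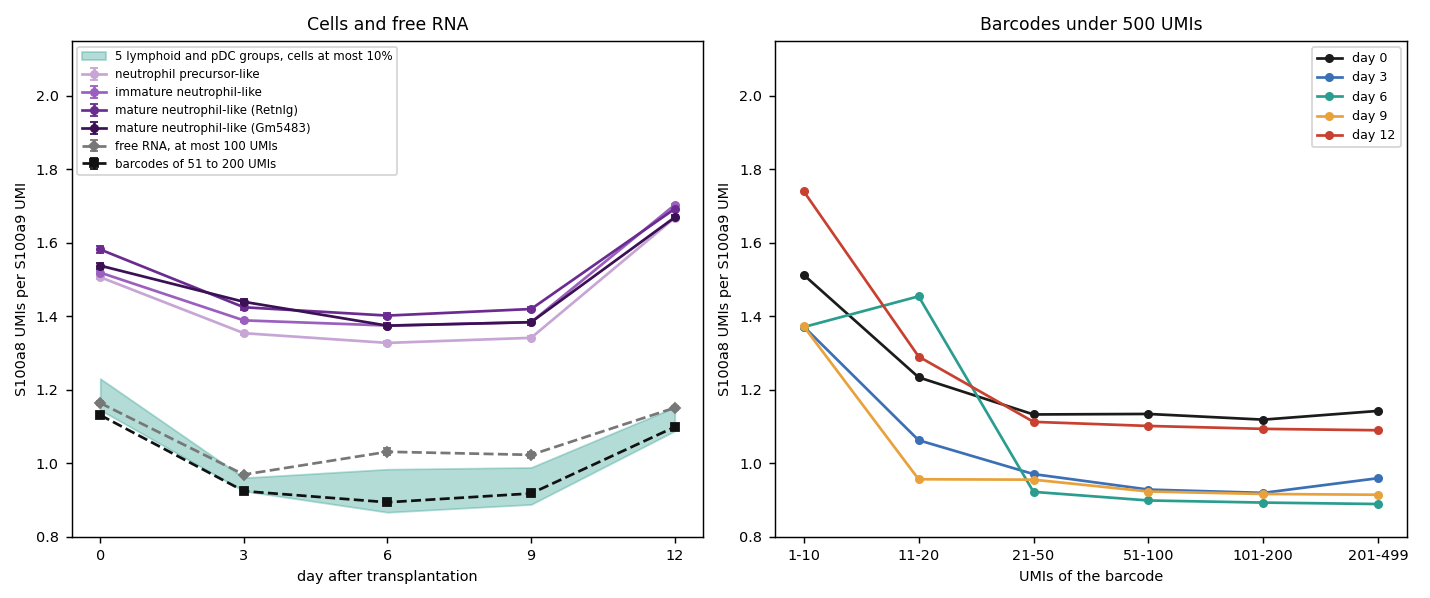
*S100a8* UMIs per *S100a9* UMI (vertical axes). Left, by day after transplantation, for the 4 neutrophil-like groups, free RNA, barcodes of 51 to 200 UMIs and, as a shaded range, the 5 lymphoid and pDC-like groups over cells of at most 10%, with error bars for exact binomial 95% intervals; right, by UMIs of the barcode in bins under 500. Neutrophils lie at 1.33 to 1.70 and free RNA at 0.97 to 1.16.

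As shares of UMIs, *S100a6* and *S100a11* were highest in the later groups of the neutrophil series. The median UMIs per cell went the other way, 10926 in precursor-like, 4376 in immature, 2668 in mature (*Retnlg*) and 1935 in mature (*Gm5483*) cells. Molecules per cell were not compared. *S100a11* went from 20.6 to 24.3 UMIs per 10000 in precursor-like cells to 44.2 to 47.4 in immature cells, 88.8 to 107.8 in mature (*Retnlg*) cells and 112.6 to 134.7 in mature (*Gm5483*) cells over the 5 libraries, and none of these neighbouring ranges overlapped. *S100a6* made a steeper climb, from 5.70 to 9.87 in precursor-like cells through 32.2 to 58.1 in immature cells to 107 to 127 and 100 to 124 in the mature groups, the last pair overlapping. The share taken by *S100a8* and *S100a9*, already near its full level in precursor-like cells, showed no such climb. The order precursor, immature, mature held for both genes in 5 of 5 libraries.

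In monocytes the pair parted. *S100a6* was 47.6, 42.6, 39.8, 45.6 and 53.2 UMIs per 10000 in monocyte-like cells from day 0 to day 12, above free RNA in each library (1.46 to 2.39 times), and 26.9 to 37.4 in cycling monocyte-like cells. The monocyte-like values were clear of the mature neutrophil values (lowest 100.3) and interleaved with the immature ones. *S100a11* was 21.9, 16.3, 15.1, 15.1 and 16.5 in monocyte-like cells, at 0.561 to 0.984 of the free RNA level, though granule genes were lower still. In GMP-like cells *S100a6* was low at 4.23 to 5.19, or 0.1298 to 0.230 of free RNA, and inside the granule gene range in 5 of 5 libraries, while *S100a11* was 9.30 to 14.7. T-like cells held 9.11 to 15.9 of *S100a6*, in each library above every granule gene relative to free RNA, and the lowest *S100a11* level was in pro/pre-B-like cells, 2.77 to 6.54. Over all 42 pairs of group and library, *S100a6* stood above the granule range in 31 and *S100a11* in 38, and neither stood below it. In mature (*Gm5483*) neutrophils both genes stood above that range in 5 of 5 libraries as well. Stray RNA from such cells would lie there too, so a place above the range does not by itself show expression by the group.

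*S100a4* was a monocyte gene. Monocyte-like cells held 26.7 (95% interval 26.1 to 27.3), 25.7, 23.02, 25.0 and 26.3 UMIs per 10000 from day 0 to day 12 and cycling monocyte-like cells 18.3, 15.8, 13.9, 15.2 and 17.8. The groups did not overlap, and the other 10 groups named in all libraries were far below, the highest being T-like cells at 1.55 to 2.18 and NK-like cells at 0.390 to 2.11. Monocyte-like cells were at 5.57 to 7.30 times the free RNA level. A UMI of the gene was seen in 97.7% to 99.0% of monocyte-like cells, and in 66.4% to 71.4% once each cell was thinned to 500 UMIs. In neutrophil-like groups the share was 6.38% to 34.0% at full depth and 1.44% to 4.05% after thinning, with a level of 0.192 to 0.716. B-like cells lay below every granule gene relative to free RNA in 5 of 5 libraries, at 0.0795 to 0.128. Among unnamed cells the *Cd83* cluster, whose leading genes include the class II genes *H2-Eb1*, *H2-Aa* and *H2-Ab1*, held 13.9 to 21.9.

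*S100a10* was spread over more cell types and was nearly absent from neutrophils. Cycling monocyte-like cells held 18.0, 14.6, 16.7, 15.2 and 16.6 UMIs per 10000, monocyte-like cells 12.3, 12.7, 11.2, 11.2 and 11.7, and NK-like cells 11.4, 10.6, 10.7, 10.2 and 13.8. Cycling monocyte-like cells were above monocyte-like cells in every library, the reverse of the order for *S100a4*. T-like cells followed at 5.57 to 6.75, clear of NK-like cells above and of GMP-like cells (3.46 to 4.78) below. Neutrophil-like groups held 0.189 to 0.756, at 0.0521 to 0.157 of the free RNA level and below the 8 other groups named in all libraries. Relative to free RNA, *S100a10* stood above the whole granule range in 41 of the 42 pairs outside neutrophils, the most of any member. Cells with a UMI of the gene made up 88.3% to 94.8% of the monocyte-like group, 75.5% to 90.7% of the NK-like group and 6.05% to 36.5% of the neutrophil groups (1.05% to 3.61% after thinning to 500 UMIs).

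At day 9, the only library with enough of its cells, the *Col2a1* cluster held *S100a6* at 35.2, *S100a11* at 27.5, *S100a4* at 7.77 and *S100a10* at 5.56 UMIs per 10000. Its *S100a8* level of 725 was 0.953 of the free RNA level, with 32.1% of its 28 cells over 10% of UMIs from the pair and a median cell at 3.86%. The *mt-Nd1* cluster held 823 to 1422 of *S100a8*, or 0.919 to 1.87 of free RNA, and 19.0 to 41.2 of *S100a6*.

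Across the 16 clusters, as a description over points that share libraries and depth, *S100a8* and *S100a9* had nearly one pattern (Pearson r = 0.999 of log2 level). *S100a6* was most like *S100a11* (r = 0.859), *S100a4* was most like *S100a10* (r = 0.752), and *S100a8* ran opposite to *S100a10* (r = -0.775). Outside the family, among 2465 genes, the patterns most like *S100a8* and *S100a9* were those of *Pglyrp1* (r = 0.995 and 0.993), *Lrg1* (0.993 and 0.992) and *Wfdc21* (0.989 and 0.992), which encode a peptidoglycan recognition protein, a leucine-rich glycoprotein of granulocytes and a small whey-acidic-protein family member. For *S100a11* they were *Slpi* (0.972), *Dhrs7* (0.968) and *Pilra* (0.965), and for *S100a6* *Hacd4* (0.968), *Cd300lb* (0.928) and *Chp1* (0.925). For *S100a4* they were *Pid1* (0.958), *Cd302* (0.944) and *F13a1* (0.940), the last being one of the markers that named the monocytes. For *S100a10* they were *Crip1* (0.957), *Prdx1* (0.934) and *Eef2* (0.927).

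Another 10 S100 genes, and *S100pbp*, which encodes an S100P-binding protein, were low. *S100a13*, the most abundant, gave 2.30 UMIs per 10000 over all cells and was highest in NK-like cells, 3.22 to 4.86, and monocyte-like cells, 3.28 to 4.33, with 1.21 to 1.498 in mature (*Gm5483*) neutrophils. *S100a1* reached 0.85 to 1.31 in GMP-like cells. *S100a3*, *S100a5*, *S100a7a*, *S100a14*, *S100a16*, *S100b*, *S100g* and *S100z* were at or under 0.0101 over all cells, although *S100b* (2.03) and *S100a16* (1.196) were seen in the *Col2a1* cluster. *S100pbp* was at 0.056 over all cells.

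Known partners and receptors followed their own patterns. *Anxa1*, whose protein binds that of *S100a11*, was highest a step earlier, at 25.5 to 31.2 UMIs per 10000 in immature neutrophil-like cells against 8.36 to 12.2 in mature (*Gm5483*) cells, where *S100a11* was highest. *Anxa2*, the partner of *S100a10*, was 7.26 to 9.26 in monocyte-like cells but also 7.75 to 10.0 in mature (*Gm5483*) neutrophils, where *S100a10* was at most 0.756. *Ahnak*, a giant scaffold bound by the complex of both, was 2.54 to 3.65 in monocyte-like and 2.09 to 2.65 in NK-like cells and at most 0.165 in neutrophils, as *S100a10* was. *Myh9* was 1.14 to 1.94 in T-like cells, and *Cacybp* was 1.45 to 2.67 in pro/pre-B-like and 1.34 to 1.95 in GMP-like cells. Of the receptors, *Bsg* was 1.83 to 2.31 in GMP-like cells, whereas *Tlr4* was at most 0.215 and *Ager* at most 0.0618 in any group.

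The levels at day 3, day 6, day 9 and day 12 were each set against day 0, in 13 groups (the 12 named ones and the *Cd83* cluster). All 4 comparisons share the day 0 mouse. A gene was called at a 1.5-fold difference where both libraries had at least 20 cells of the group, and 69 to 73 of the 78 pairs of member and group per day had enough counts, the missing ones being *S100a4* and *S100a10* in groups where they are scarce. At day 3, 1 of 72 pairs was called up and 10 down, where 6.67% and 8.46% of 27754 pairs over all genes were called. At day 6 it was 6 up and 1 down of 73, beside 6.33% and 6.02% of all genes. At day 9 it was 7 up and 2 down of 72, beside 6.77% and 7.60%, and at day 12 it was 9 up and 4 down of 69, beside 6.53% and 6.55%. The member shares were thus 1.39%, 8.22%, 9.72% and 13.04% up and 13.9%, 1.37%, 2.78% and 5.80% down, the median fold over member pairs being 0.901, 0.965, 0.963 and 1.05 on the 4 days and that over all genes 1.01, 1.02, 0.995 and 1.01. These counts depended on the doublet filter: with the 5% of cells of highest doublet score removed, 9 pairs were called up at day 3 and 21 at day 12. The calls down at day 3 include *S100a8*, *S100a4*, *S100a10* and *S100a11* in the pro/pre-B-like group, where 23.7% of 2714 genes were called down. The median depth of that group was 6439.5 UMIs at day 3 and 2261 at day 0.

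*S100a6* at day 12 was the clearest difference in the family. It was higher than at day 0 in 13 of 13 groups, with a median fold of 1.43. In the precursor-like group it was 5.70, 6.54, 6.21, 9.24 and 9.87 UMIs per 10000 from day 0 to day 12, and in the immature neutrophil-like group 32.2, 40.5, 36.5, 47.8 and 58.1. The day 12 folds were 1.73 (95% interval 1.66 to 1.81) and 1.81 (1.78 to 1.84). Day 9 and day 12 were the highest libraries in both, and the precursor-like fold at day 9 was 1.62. The mature groups, which held the most, differed little, with day 12 folds of 1.11 and 1.08. T-like cells held 9.11 at day 0 and 15.9 at day 12, a fold of 1.74 (1.61 to 1.89), and B-like cells 6.70 and 16.9, a fold of 2.53 (2.23 to 2.86). The removal of high mitochondrial shares left 16 of the 109 B-like cells at day 12, too few to compute this fold again. Earlier calls were in NK-like cells at day 6 (1.64) and in B-like (1.62) and pDC-like cells (1.65) at day 9. Free RNA differed the same way, with 19.9 at day 0 and 36.5 at day 12, 1.84-fold (1.88-fold in barcodes of 51 to 200 UMIs). T-like cells stayed at 0.435 to 0.476 of the free RNA level in all 5 libraries and precursor-like cells at 0.260 to 0.331. Other groups varied more. B-like cells were at 0.337, 0.253, 0.305, 0.390 and 0.463 of it from day 0 to day 12, and NK-like cells at 0.293 to 0.590. In cells at or under 10% of *S100a8* and *S100a9* the day 12 folds were 1.49 in T-like, 1.98 in B-like and 0.956 in the pro/pre-B-like group, whose fold over all of its cells was 2.22. The part of free RNA in these folds was not tested.

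**Figure D5:**
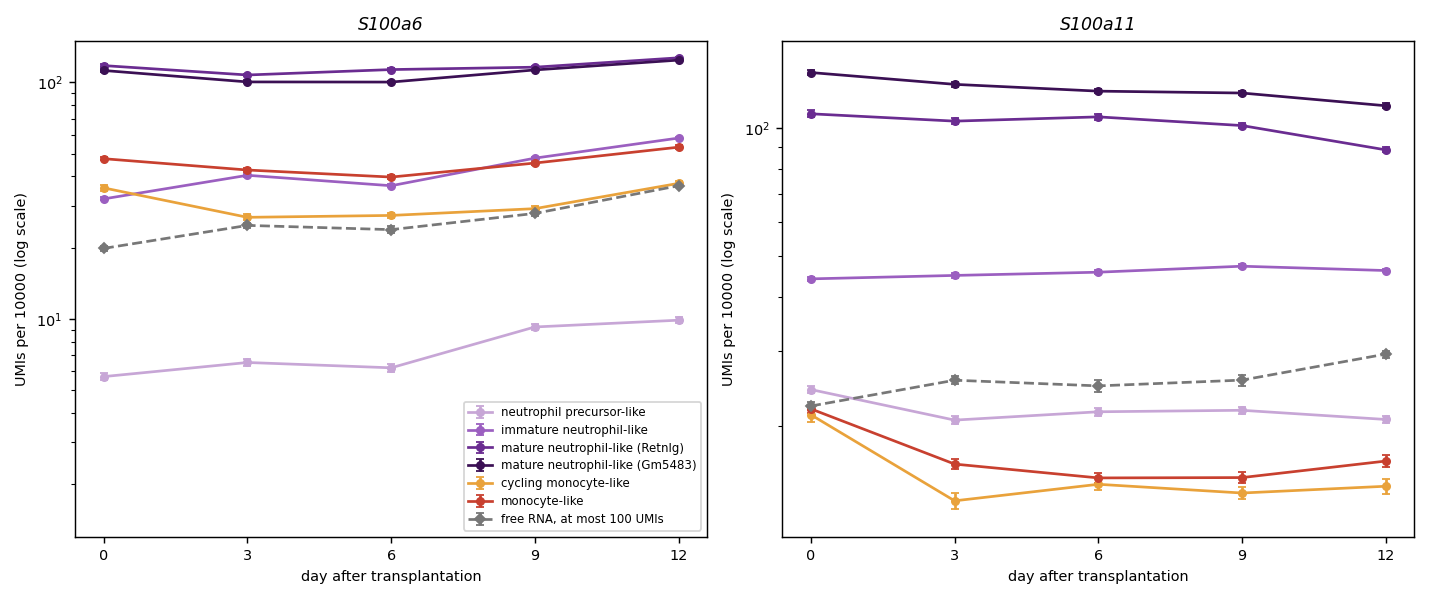
Levels of *S100a6* (left) and *S100a11* (right) by day after transplantation (vertical axes, UMIs per 10000, log scale) in the 4 neutrophil-like and both monocyte-like groups and in free RNA (dashed), with exact Poisson 95% intervals. *S100a6* lies higher at day 9 and day 12 than at day 0 in precursor-like and immature neutrophils and in free RNA, and *S100a11* lies lower than at day 0 in both monocyte-like groups on all later days.

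*S100a11* was lower than at day 0 on every later day in 8 of the 13 groups, with the lowest mean folds in the monocyte-like groups. In monocyte-like cells the folds over day 0 were 0.742 (95% interval 0.716 to 0.770), 0.689 (0.664 to 0.714), 0.690 (0.665 to 0.716) and 0.755 (0.725 to 0.785), and in cycling monocyte-like cells 0.628, 0.687, 0.656 and 0.680, of which day 3 and day 9 passed the 1.5-fold line. GMP-like cells had 0.633, 0.837, 0.708 and 0.840, the last going above 1 (0.06 on the log2 scale) once cells with high mitochondrial shares were removed. The geometric mean fold over the 4 days was 0.718 in monocyte-like, 0.662 in cycling monocyte-like and 0.749 in GMP-like cells, 0.752 in the *Cd83* cluster, 0.842 in pDC-like and 0.870 in precursor-like cells, and 0.893 and 0.924 in the mature groups. In other settings the pDC-like log2 folds at day 9 and day 12 reached 0.03 and 0.49. Over the same days free RNA was 1.11 to 1.32 times its day 0 level (1.09 to 1.32 in barcodes of 51 to 200 UMIs), so the monocyte values lay opposite to it. With cells over 10% left out, the monocyte-like folds were 0.716, 0.674, 0.663 and 0.711. Immature neutrophil-like cells were at 1.02 to 1.07 and the mature (*Gm5483*) group at 0.938, 0.904, 0.895 and 0.836. The day 0 library alone sets this contrast, since the 4 later libraries lay between 15.1 and 16.5 in monocyte-like cells and day 0 at 21.9.

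*S100a8* was below its day 0 level in all 4 neutrophil-like groups at day 3, day 6 and day 9 and above it in all 4 at day 12, by less than the 1.5-fold line each time. In immature neutrophil-like cells the folds were 0.891, 0.874, 0.865 and 1.04. The 1.5-fold calls lay outside the neutrophils, where levels are low: down at day 3 in B-like (0.633), GMP-like (0.617), pro/pre-B-like (0.598) and cycling monocyte-like cells (0.527), down at day 6 in pDC-like cells (0.586), and at day 12 up in pDC-like (1.58) and pro/pre-B-like cells (1.60) and down in cycling monocyte-like cells (0.663). NK-like cells were up at day 9 for *S100a8* (1.94) and for *S100a9* (2.11), which was also up there at day 6 (1.56) and in the pro/pre-B-like group at day 12 (1.57). With cells over 10% left out, none of the 9 *S100a8* calls and none of the 3 *S100a9* calls of the named groups was past 1.5-fold, and 17 of 32 *S100a8* folds and 11 of 32 *S100a9* folds lay on the other side of day 0. Other folds then passed 1.5, for *S100a8* in NK-like cells at day 12 (1.56). For *S100a9* they were NK-like (1.55), B-like (1.54) and pDC-like cells (1.67) at day 12. The rest were pDC-like cells at day 9 (1.55) and the pro/pre-B-like group at day 6 (1.51). All 32 *S100a9* folds then lay above day 0, at 1.09 to 1.67. The NK-like folds at day 9 were then 0.998 and 1.27. Of the calls of the other members in those groups, 3 of 6 were kept for *S100a6*, 7 of 8 for *S100a4*, 1 of 1 for *S100a10* and 4 of 4 for *S100a11*. The 10% cut is set on *S100a8* and *S100a9* themselves, so it bounds their levels by construction and not those of the other members. The difference in kept calls is therefore no test. In free RNA *S100a8* was 0.916, 0.833, 0.902 and 1.30 times day 0. In barcodes of 51 to 200 UMIs it was 0.902, 0.786, 0.860 and 1.28 times day 0.

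*S100a4* and *S100a10* were called on no day in monocyte-like or cycling monocyte-like cells, where they were abundant. *S100a4* in pDC-like cells was 0.974, 1.23, 1.68, 2.0 and 1.97 UMIs per 10000, with folds of 1.73, 2.05 (1.53 to 2.79) and 2.02 (1.30 to 3.12) at day 6, day 9 and day 12, the last from 37 cells. In mature (*Gm5483*) neutrophils *S100a4* was called up at day 3 (1.91), day 6 (1.54) and day 9 (1.56), from levels of 0.375 at day 0 to 0.716 at day 3, which are 0.0976 to 0.167 of free RNA. NK-like cells were down at day 3 (0.237, 9 UMIs) and day 12 (0.337, 13 UMIs) the pro/pre-B-like group at day 3 (0.639) and day 12 (0.180, 4 UMIs), and GMP-like cells at day 12 (0.639). *S100a10* was called in 4 cases, up in both mature neutrophil groups at day 6 (1.53 and 1.54) and down in the pro/pre-B-like group at day 3 (0.659) and in the *Cd83* cluster at day 9 (0.612).

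Of the other S100 genes, 18 pairs per day could be compared and only *S100a1* in the *Cd83* cluster at day 3 (0.529) was called. Of the partner pairs, 5 of 65, 6 of 66, 10 of 66 and 10 of 65 were called up on day 3, day 6, day 9 and day 12, and 3 down, all at day 12. These are shares of 7.69%, 9.09%, 15.2% and 15.4% up, beside the 6.67%, 6.33%, 6.77% and 6.53% of all genes, with median folds of 1.09, 1.10, 1.09 and 1.16. *Anxa2* in B-like cells was at 1.66, 1.82 and 2.11 times day 0 at day 6, day 9 and day 12 and *Anxa1* at 1.52, 1.57 and 1.80, where *S100a6* was also higher at day 9 and day 12. *Myh9* was called up in precursor-like cells on all 4 days (1.53, 1.65, 1.64 and 1.55). The calls down were *Myh9* (0.570) and *Bsg* (0.550) in B-like cells and *Bsg* in the *Cd83* cluster (0.636).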

How the data were processed

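The authors deposited raw UMI counts per gene and barcode for the 5 libraries, made with Cell Ranger on mm10 per the labels, each listing all 737280 possible barcodes. Nothing was normalized. Members, lists and comparisons were chosen with earlier results of these data known.

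Barcodes with at least 500 UMIs were kept with no mitochondrial or doublet filter, because Scrublet called only 158 cells (0.492%) and was judged not to have worked; barcodes with at most 100 UMIs stood for free RNA. Cells were clustered with scanpy 1.11.5 (leidenalg 0.10.2) on 991 genes among the 1000 most variable of a library in at least 2 libraries, without S100 genes, partner genes or mitochondrial genes, with 20 principal components, 20 neighbours and resolution 0.6. A cluster was named where at least 3 listed markers were present in at least 20% of its cells at 2-fold or more over the other cells. That scoring rule, the split at 10% of UMIs, the barcode bins and the window of 140 bases (moved once, after a first one ended before the *S100a9* match) were set after the data were seen.

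Levels are summed counts per 10000 UMIs with exact Poisson 95% intervals, and shares have Clopper-Pearson 95% intervals (scipy 1.17.1). Depth was 33425695 to 43554233 UMIs per library, free barcodes holding 3.58% to 11.9%. PCR duplicates are collapsed by UMI, but intervals cover counting error only. Fold changes needed at least 20 cells in both libraries, 20 summed counts and a level of 0.5 per 10000 in either, and were called at 1.5-fold. Likeness used log2(level + 0.1) over genes with a level of at least 1 in some group. Named genes were the 6 members, 11 other S100 genes (*S100pbp* included), 9 partners, 6 granule genes, 3 like genes for each member and leading genes of unnamed clusters. Calling and free RNA scripts were tested on simulated data. Alternatives varied the barcode minimum (1000 UMIs), the free RNA limit, filters, resolution (1.2), averaging and denominator.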

Additional observations from a re-analysis of the deposited data

Results flagged for a closer look

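Within each gene, groups that lay above day 0 on all 4 later days were set beside groups that lay below it on all 4, by the geometric mean of their folds. None of these differences was tested, all rest on the single day 0 mouse, and the groups were picked for being furthest apart. For *S100a8*, NK-like cells (1.41) over cycling monocyte-like cells (0.675) gave 2.09. With cells over 10% left out, the NK-like folds at day 3, day 6 and day 9 and all 4 cycling monocyte-like folds lie on the other side of day 0. For *S100a9*, NK-like cells (1.52) over neutrophil precursor-like cells (0.926) gave 1.65. For *S100a4*, pDC-like cells (1.73) over GMP-like cells (0.783) gave 2.21, with 37 pDC-like cells at day 12. For *S100a10*, T-like cells (1.14) over the *Cd83* cluster (0.742) gave 1.54. For *S100a11*, immature neutrophil-like cells (1.04) over cycling monocyte-like cells (0.662) gave 1.57, and the immature fold goes below 1 at day 3, day 6 and day 9 when *S100a8* and *S100a9* are left out of the total.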

How the results depend on the processing

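In 5 of 5 libraries under every setting, all neutrophil classes were above every other class for *S100a8* and *S100a9*, and the highest class was mature neutrophil-like for *S100a6* and *S100a11*, monocyte-like for *S100a4* and cycling monocyte-like for *S100a10*. With free RNA from at most 50 UMIs, *S100a8* was above the granule range in 0 pairs (17 as reported), *S100a9* in 2 (4), and *S100a8* UMIs per *S100a9* UMI were fewer than in all neutrophil classes in 3 libraries (5); with a mean over cells the counts above were 10 and 0, and without cells over 10% they were 5 and 2. Calls against day 0 moved with these settings: with high mitochondrial shares removed, 2 up at day 3 and 2 down at day 12; with the highest doublet scores removed, 9 up and 6 down at day 3, 0 down at day 6, 12 up at day 9 and 21 up at day 12; at resolution 1.2, 2 down at day 6; with a mean over cells, 3 up and 4 down at day 3 and 2 up and 4 down at day 6; without cells over 10%, 4 down at day 9 and 2 down at day 12; with at least 100 cells, 4 up and 2 down at day 12. The cause was not tested. Thinned to 500 and 1000 UMIs, the share of cells with a UMI was 98.5% and 99.9% for *S100a8* and for *S100a9*, 60.7% and 71.3% for *S100a6*, 11.6% and 16.7% for *S100a4*, 12.5% and 20.7% for *S100a10*, and 65.3% and 79.0% for *S100a11*.

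The log2 fold over day 0 of *S100a8* changed sign in cycling monocyte-like cells with the highest doublet scores removed (0.22 at day 3, 0.67 at day 12) and without cells over 10% (0.10 and 0.39), in the pro/pre-B-like group at day 3 with doublet scores removed (0.40), and without cells over 10% in pDC-like cells at day 6 (0.12) and NK-like cells at day 9 (-0.0026); *S100a6* in the pro/pre-B-like group at day 12 changed sign without cells over 10% (-0.065). *S100a6* in T-like cells at day 12 ran from 0.58 to 1.98 on the log2 scale over the settings, the highest from 26 of 241 cells left after the mitochondrial filter. With *S100a8* and *S100a9* out of the total, *S100a6* in precursor-like cells at day 6 went from 0.12 to -0.02, and *S100a11* in immature neutrophil-like cells from 0.03, 0.05 and 0.10 to -0.06, -0.05 and -0.01; the median gene in neutrophil-like groups at day 3 to day 9 lay at 0.083 to 0.221, and at 0.038 to 0.089 with that pair left out. *S100a11* in monocyte-like cells stayed below day 0 on all 4 days in every setting (-0.35 to -0.60). Of 2167 log2 folds recomputed, 1586 stayed within counting error and 185 had the other sign, 8 of them for a fold called at 1.5-fold. No paired analysis was possible because each day has 1 library, and for the same reason no replicate could be left out.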
